A study of Homo sapiens with 6 samples.

Results

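A set of 10 genes of the contractile apparatus and of mesenchymal intermediate filaments was followed in TFK1 cells, a cell line from an extrahepatic bile duct carcinoma. They were chosen by symbol: VIM, NES, ACTA2, TAGLN, MYL9, CNN1, CNN2, CALD1, TPM1 and TPM2, and all 10 were found among the 23569 genes of the expression table. RNA was sequenced from negative control cells (oeNC, 3 libraries) and from cells of the same line that overexpressed STUB1 (oeSTUB1, 3 libraries). The study's methods give lentiviral infection and puromycin selection for its TFK1 lines, but do not describe the control vector. Whether the sequenced groups shared a vector backbone and the selection is not stated. The study's question for this experiment was which genes respond to STUB1, a ubiquitin ligase it places upstream of UHRF1 and DNMT1. No source states that the 3 libraries of a group came from separate cultures, so the p-values measure the spread between these libraries, which may be technical.

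Vimentin and nestin are intermediate filament proteins that mark mesenchymal and progenitor cells. Alpha smooth muscle actin, myosin light chain, transgelin, calponins, caldesmon and tropomyosins build or regulate actin filaments that contract against myosin II. Many of these genes are known targets of serum response factor, which binds a promoter element called the CArG box, and they are widely used as markers of smooth muscle cells, myofibroblasts and epithelial cells that have taken on mesenchymal features.

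The values are FPKM, fragments scaled to gene length and to the library total. STUB1 itself was 32.9, 33.0 and 30.9 FPKM in the oeNC libraries and 61.4, 74.97 and 61.9 FPKM in the oeSTUB1 libraries, a log2 fold change of 1.03 (SE 0.097, limma adjusted p = 0.00064), so the libraries followed their labels. Library totals recovered from the table lay between 33106564 and 36744521 fragments. The second oeSTUB1 library stood apart from the other oeSTUB1 libraries, since the chi-square of its gene counts divided by the degrees of freedom was 82.6 and 76.7 against them, where the other replicate pairs had 3.48 to 10.4. Its FPKM values also summed to 445507, against 395202 to 408809 in the other 5 libraries. Of the 10 genes, 7 had their highest value in this library, and the log2 fold change without it is given below for each tested gene that could be fitted.

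TPM1, TAGLN and CNN2 were higher in oeSTUB1 cells, and none of the 10 genes was called lower by limma, with 0 lower also at an unadjusted p under 0.05. The 3 calls were not equally firm. TPM1 kept its call in all 16 other settings of the analysis, while TAGLN lost it in 6 and CNN2 in 13. Without any single oeNC library, or without the first oeSTUB1 library, TPM1 was the only member called. TPM1, a tropomyosin that lies along actin filaments, went from 32.4 ± 3.23 to 63.5 ± 13.3 FPKM (SD, n = 3 per group). TAGLN, an actin-bundling protein typical of smooth muscle, went from 0.997 ± 0.103 to 2.41 ± 1.06 FPKM, and CNN2, a calponin of non-muscle cells, from 47.5 ± 1.94 to 58.7 ± 4.16 FPKM. VIM, by far the most abundant of the 10, was 497 ± 34.6 and 525 ± 86.2 FPKM, and ACTA2 was 6.25 ± 0.330 and 5.68 ± 0.844 FPKM, with no call for either. The test was limma on log2(FPKM + 0.1), two-sided, over the 15353 genes that averaged 0.1 FPKM or more, with Benjamini-Hochberg adjustment and a threshold of 0.05, and a log2 fold change on this scale understates the change of a low gene. Of the 10 genes, 9 passed the filter on low values and 3 of these 9 were called higher, where 13.6% of all tested genes were called, 7.01% higher and 6.59% lower. The median log2 fold change was 0.28 over the 9 genes, beside 0.02 over all tested genes, and 8 of the 9 had a positive value. The share of all tested genes with a positive value was not taken. Without the second oeSTUB1 library the median was 0.14 over the 8 members tested, beside 0.03 over all genes tested. VIM was then negative. Only TAGLN was called with a log2 fold change over 1, which 2.79% of all tested genes did in this direction. The values of the oeNC and oeSTUB1 libraries did not overlap in the same 3 of 9 genes, all higher, where 38.8% of all tested genes did not overlap and 21.5% were higher. In these bulk libraries, a change in how many cells hold a transcript and a change in its amount per cell cannot be told apart.

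**Figure D1:**
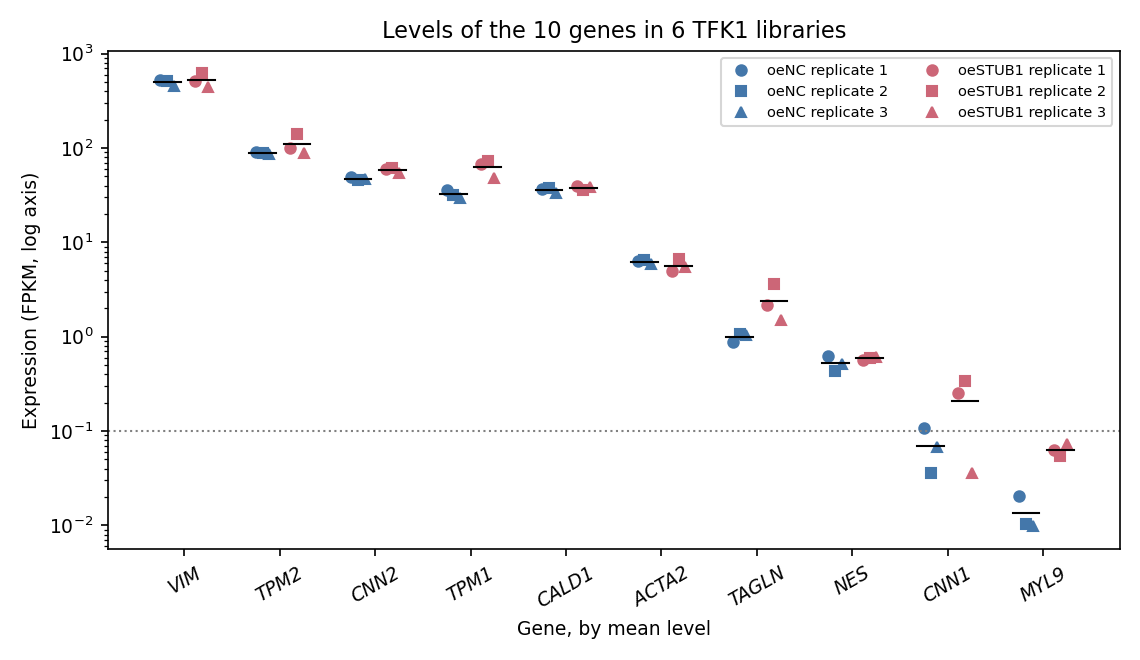
Expression of the 10 genes in FPKM on a log axis, ordered by mean level, with 1 point per library, oeNC in blue and oeSTUB1 in red, a bar at each group mean and a dotted line at the filter of 0.1 FPKM. The levels span from VIM, at 448 to 618 FPKM, down to MYL9, at 0.00977 to 0.0735 FPKM.

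Because the study dealt with DNA methylation and because serum response factor acts through promoters, the start regions of these genes are shown here. Methylation was not measured in these libraries. The 250 bases before each start were taken from RefSeq (GRCh38.p14), where 8 of the 10 genes had an entry, with no entry for TAGLN and MYL9. In the printed stretches CpG dinucleotides are in capitals, and each stretch was ended where an exon of a protein coding gene in GENCODE release 29 began. TPM1 and CNN2, which were called higher, are set beside VIM and the downstream start of ACTA2, which were not called. The TPM1 stretch (chr15:63048239-63048438, plus strand) lies inside the TPM1 gene, downstream of its first start, and opposite an exon of the antisense gene TPM1-AS. The CNN2 stretch (chr19:1026358-1026580, plus strand) and the VIM stretch (chr10:17227991-17228240, plus strand) lie before the gene. The ACTA2 stretch (chr10:88952774-88953023, minus strand) lies inside the ACTA2 gene.
TPM1: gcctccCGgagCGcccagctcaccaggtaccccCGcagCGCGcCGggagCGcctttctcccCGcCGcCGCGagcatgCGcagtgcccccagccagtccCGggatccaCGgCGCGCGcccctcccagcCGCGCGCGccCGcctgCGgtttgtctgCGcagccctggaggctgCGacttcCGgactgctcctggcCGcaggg
CNN2: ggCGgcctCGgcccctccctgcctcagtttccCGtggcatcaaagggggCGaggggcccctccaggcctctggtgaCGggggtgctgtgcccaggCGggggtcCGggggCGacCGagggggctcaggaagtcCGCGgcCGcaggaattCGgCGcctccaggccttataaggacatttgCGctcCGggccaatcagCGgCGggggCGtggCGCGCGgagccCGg
VIM: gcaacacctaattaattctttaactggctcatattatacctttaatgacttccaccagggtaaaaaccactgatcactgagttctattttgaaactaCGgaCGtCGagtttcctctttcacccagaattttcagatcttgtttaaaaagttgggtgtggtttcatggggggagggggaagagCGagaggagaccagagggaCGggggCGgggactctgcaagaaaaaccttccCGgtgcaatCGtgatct
ACTA2: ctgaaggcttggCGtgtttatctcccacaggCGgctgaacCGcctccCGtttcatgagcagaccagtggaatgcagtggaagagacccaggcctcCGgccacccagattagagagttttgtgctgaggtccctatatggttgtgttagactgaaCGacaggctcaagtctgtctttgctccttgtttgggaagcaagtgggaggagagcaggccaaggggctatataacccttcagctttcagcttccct

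Over the whole 250 bases, the TPM1 window held 34 CpG and the CNN2 window 28, at percentiles of 93.2 and 84.1 among 35116 promoters of 27305 genes, whose median was 11 and whose quartiles were 3 and 23. The TPM2 windows also held many, 25 and 19 at its pair of starts, and TPM2 was not called. The VIM and NES windows held 8 each, CNN1 held 6, ACTA2 held 6 at the printed start and 17 at the upstream one, and the 4 CALD1 windows held 1 to 5. CpG-rich windows thus occurred both among genes that were called and among genes that were not.

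The CArG box was searched on both strands of these windows. An exact match was present in 1.16% of all promoters and a match with up to 1 mismatch in 7.04%. The outer CC and GG had to be exact, so a mismatch was allowed only in the A or T bases between them. CNN2 held the only exact match among the members with an entry, 89 bases before its start, while ACTA2 held a pair of words with 1 mismatch and NES and CALD1 1 each. The words are shown in capitals within 30 bases, at chr19:1026509-1026538 (plus strand) for CNN2, chr10:88952875-88952904 and chr10:88952825-88952854 (minus strand) for ACTA2, chr1:156677625-156677654 (minus strand) for NES and chr7:134711463-134711492 (plus strand) for CALD1. No word under this rule was found in these windows of VIM, CNN1, TPM1 and TPM2. Words with a mismatch in the outer CC or GG were not counted. A match is a description of the letters and not a bound site.
CNN2: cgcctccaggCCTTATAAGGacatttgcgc
ACTA2, farther from the start: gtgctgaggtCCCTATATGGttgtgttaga
ACTA2, nearer to the start: tgtctttgctCCTTGTTTGGgaagcaagtg
NES: gcattatctgCCTTTTTCGGggattgtgac
CALD1: ccagaggtccCCTAAAGAGGaatacattct

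The intermediate filament genes were examined first. VIM (chr10:17228259-17237593, plus strand, GRCh38 as in all gene positions here) was 524, 509 and 458 FPKM in the oeNC libraries and 509, 618 and 448 FPKM in the oeSTUB1 libraries. The groups overlapped, and the only value above the oeNC range came from the second oeSTUB1 library. The log2 fold change was 0.07 (SE 0.13, 95% interval -0.24 to 0.38, limma adjusted p = 0.768), and without that library it was -0.06. It was 0.18 without the third oeSTUB1 library, 0.11 without the first oeNC library and 0.01 without the third. VIM ranked between 88 and 100 among all listed genes in each library and made up 64.8% to 70.6% of the summed FPKM of the 10 genes. A change in VIM anywhere within that interval remains compatible with these values.

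NES (chr1:156668763-156677397, minus strand), an intermediate filament gene of neural and other progenitor cells, was low at 0.631, 0.435 and 0.513 FPKM in oeNC and 0.568, 0.591 and 0.615 FPKM in oeSTUB1. The highest value of all was in an oeNC library, and the groups overlapped. The log2 fold change was 0.15 (SE 0.18, 95% interval -0.25 to 0.56, limma adjusted p = 0.603), and also 0.15 without the second oeSTUB1 library. It was 0.27 without the first oeNC library and 0.05 without the second.

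Of the contractile motor components, ACTA2 (chr10:88935074-88991339, minus strand), the actin of smooth muscle and myofibroblasts, was 6.28, 6.56 and 5.90 FPKM in oeNC and 4.94, 6.60 and 5.49 FPKM in oeSTUB1. It was the only tested member with a negative log2 fold change, -0.14 (SE 0.12, 95% interval -0.42 to 0.14, limma adjusted p = 0.469). The groups overlapped through the second oeSTUB1 library, and without it the value was -0.26 with an adjusted p of 0.0519. Without the first oeSTUB1 library it was -0.05 with an adjusted p of 0.798. ACTA2 shares 380 exon bases with FAS on the opposite strand, and FAS averaged 1.35 FPKM in the controls and 1.65 FPKM with STUB1, with an adjusted p of 0.207.

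MYL9 (chr20:36541484-36551447, plus strand), the regulatory light chain of smooth muscle and non-muscle myosin, fell below the filter and was not tested. It was represented by 2, 1 and 1 fragments in oeNC and by 6, 5 and 7 in oeSTUB1, or 0.00977 to 0.0207 FPKM against 0.0542 to 0.0735 FPKM, where 3 fragments equal 0.0293 to 0.0325 FPKM. The groups did not overlap, but the sums were 4 and 18 fragments, a ratio of 4.69 after scaling to the library totals with a 95% exact interval of 1.55 to 19.1 that covers counting error only. Without the filter limma gave a log2 fold change of 0.52 (adjusted p = 0.0207). This light chain was thus barely detected in any library.

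The actin-binding regulators included the member with the largest log2 fold change among those called. TAGLN (chr11:117199321-117204782, plus strand) was 0.879, 1.07 and 1.04 FPKM in oeNC and 2.15, 3.58 and 1.505 FPKM in oeSTUB1, from 130, 158 and 163 and from 316, 505 and 219 fragments. All 3 oeSTUB1 libraries lay above all oeNC libraries, and the oeSTUB1 libraries differed among themselves by more than the oeNC libraries did. The log2 fold change was 1.12 (SE 0.28, 95% interval 0.47 to 1.76, limma adjusted p = 0.0361), and 0.80 without the second oeSTUB1 library (adjusted p = 0.0159). The call was lost without any 1 of the oeNC libraries or without the first oeSTUB1 library (adjusted p 0.0803 to 0.124). TAGLN shares 446 exon bases with PCSK7 on the opposite strand. PCSK7 was itself called higher, from 2.21 ± 0.231 to 3.05 ± 0.145 FPKM (log2 fold change 0.45, adjusted p = 0.0413), and whether the counting used strand is not given in the sources used here, so the part of PCSK7 reads in TAGLN was not tested.

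CNN1 (chr19:11538717-11550323, plus strand), the calponin of smooth muscle, was near the limit of detection at 9, 3 and 6 fragments in oeNC and 21, 27 and 3 in oeSTUB1. The first and second oeSTUB1 libraries were above all oeNC libraries, at 0.252 and 0.337 FPKM, while the third, at 0.0363 FPKM, lay within the oeNC range of 0.0358 to 0.107 FPKM. For CNN1 the log2 fold change was 0.72 (SE 0.45, 95% interval -0.32 to 1.75, limma adjusted p = 0.325). Without the third oeSTUB1 library it was 1.23 with an adjusted p of 0.048, and without the second the gene fell below the filter.

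CNN2 (chr19:1026581-1039068, plus strand) was far more abundant, at 49.7, 46.3 and 46.5 FPKM in oeNC and 60.2, 61.8 and 54.0 FPKM in oeSTUB1. All oeSTUB1 libraries lay above all oeNC libraries. The fitted log2 fold change was 0.30 (SE 0.082, 95% interval 0.11 to 0.49, limma adjusted p = 0.0479), a call close to the threshold that was lost in 13 of 16 other settings (adjusted p over all 16 from 0.0191 to 0.198), among them each oeNC library left out and the first oeSTUB1 library left out. Without the second oeSTUB1 library it was 0.26 (adjusted p = 0.0191).

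CALD1 (chr7:134744252-134970728, plus strand), which encodes caldesmon, an inhibitor of actomyosin, was 36.5, 37.5 and 33.6 FPKM in oeNC and 39.7, 35.6 and 38.7 FPKM in oeSTUB1. The groups overlapped through the second oeSTUB1 library, the lowest of its group. Its log2 fold change was 0.08 (SE 0.081, 95% interval -0.10 to 0.27, limma adjusted p = 0.538). It was 0.13 without the second oeSTUB1 library (adjusted p = 0.134), 0.05 without the first oeSTUB1 library and 0.04 without the third oeNC library.

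Of the tropomyosins, TPM1 (chr15:63042632-63071915, plus strand) was 35.8, 31.9 and 29.4 FPKM in oeNC and 68.4, 73.7 and 48.5 FPKM in oeSTUB1. The lowest oeSTUB1 library was above the highest oeNC library. Its log2 fold change was 0.95 (SE 0.16, 95% interval 0.58 to 1.32, limma adjusted p = 0.00756). TPM1 was the only member whose call was kept in all 16 other settings, with log2 fold changes from 0.83 to 1.13 and adjusted p from 0.00192 to 0.0416. The lowest of these log2 fold changes, 0.83, was that without the second oeSTUB1 library (adjusted p = 0.00645). TPM1 shares 2070 exon bases with TPM1-AS on the opposite strand, whose mean was 0.0795 FPKM in the controls and 0.0521 FPKM with STUB1.

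TPM2 (chr9:35681992-35690121, minus strand), the beta tropomyosin, was 91.7, 88.3 and 86.5 FPKM in oeNC and 99.99, 140.5 and 89.4 FPKM in oeSTUB1. The third oeSTUB1 library lay within the oeNC range, so the groups overlapped. For TPM2 the log2 fold change was 0.28 (SE 0.16, 95% interval -0.08 to 0.64, limma adjusted p = 0.276), and 0.09 without the second oeSTUB1 library.

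**Figure D2:**
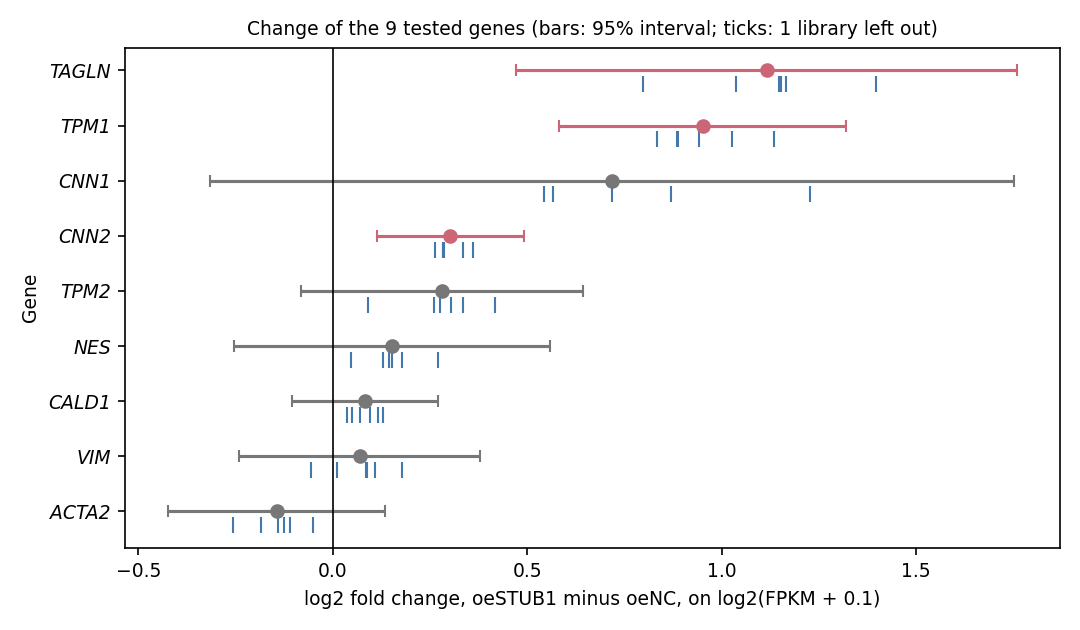
Log2 fold change of the 9 tested genes, oeSTUB1 minus oeNC, with 95% intervals as bars and the values with 1 library left out as ticks. The intervals of TAGLN, TPM1 and CNN2 lie above 0, and those of the other 6 genes include 0.

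Compared per length, the levels fell in the order VIM, TPM2, CNN2, TPM1, CALD1, ACTA2, TAGLN, NES, CNN1 and MYL9. Of the 9 neighbouring pairs, 6 kept this order in all 6 libraries without overlap within either group. CNN2 exceeded TPM1 in 4 of 6 libraries and TPM1 exceeded CALD1 in 3 of 6, so CNN2 and TPM1 overlapped in oeSTUB1 and TPM1 and CALD1 overlapped in oeNC. The ratio of TPM1 to CALD1 lay between 0.852 and 0.982 in oeNC and between 1.25 and 2.07 in oeSTUB1. CNN1 and MYL9 overlapped in oeSTUB1. The smooth muscle forms (ACTA2, TAGLN, CNN1, MYL9) reached at most 6.60 FPKM in any library, whereas VIM, CNN2, CALD1, TPM1 and TPM2 were at 29.4 FPKM or more.

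The 10 genes together took 0.189%, 0.182% and 0.167% of the fragments in oeNC and 0.212%, 0.248% and 0.182% in oeSTUB1. The third oeSTUB1 library lay within the oeNC range of this share. The FPKM of all 10 genes summed to 746, 721 and 661 in oeNC and to 785, 941 and 686 in oeSTUB1, and the groups overlapped. Without VIM, the other 9 genes summed to 222, 212 and 204 in oeNC and to 276, 323 and 238 in oeSTUB1. These groups did not overlap. TPM1, called by itself, made up 14.5% to 16.2% of the sum without VIM in oeNC and 20.3% to 24.7% in oeSTUB1.

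Because members were expressed at different levels, 6 ratios between members within a library were also compared, chosen after the values were seen. The ratio of TPM1 to TPM2 was 0.391, 0.361 and 0.340 in oeNC and 0.684, 0.525 and 0.542 in oeSTUB1, a difference of 0.67 on the log2 scale. The ratio of TAGLN to ACTA2 was 0.140, 0.163 and 0.176 in oeNC and 0.435, 0.543 and 0.274 in oeSTUB1, a difference of 1.34 on the log2 scale. The groups did not overlap for either ratio. TPM1 and TAGLN had already been called higher without overlap, and TPM2 and ACTA2 had not been called. The separation of these ratios therefore largely restates those calls and is not a further result. The exact permutation p (both sides) was 0.1 for each (0.12 adjusted over the 6 ratios), which is the smallest value that 3 libraries against 3 can give. The ratio of NES to VIM overlapped between the groups (exact permutation p = 0.7).

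**Figure D3:**
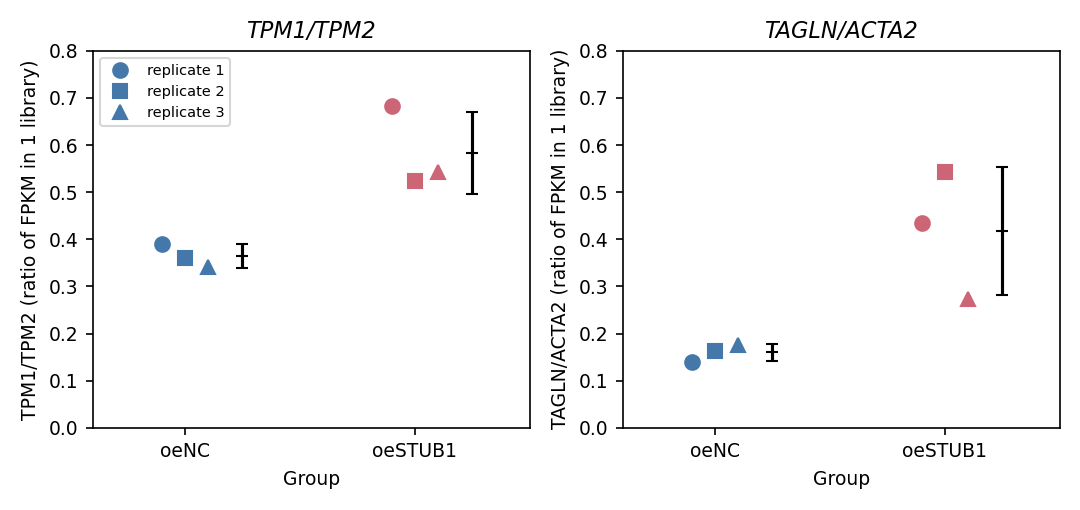
Ratio of FPKM within each library for TPM1 to TPM2 (left) and TAGLN to ACTA2 (right), with 1 point per library and the mean and SD of the 3 libraries beside them. All oeSTUB1 points lie above all oeNC points in both plots, as they did for TPM1 and TAGLN alone.

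The genes related to the members were described from 5 lists that cover relatives of the intermediate filaments, relatives of the tropomyosins, calponins and transgelins, the other actins, myosin II with its regulation, and serum response factor with its regulators and targets. Of 52 genes, 43 were tested, 4 were higher, 3 were lower and 36 did not pass, which makes 16.3% called beside 13.6% of all tested genes. Without the second oeSTUB1 library, 10 were higher and 6 lower of 42 tested, where 26.8% of all genes tested in that setting were called, 14.8% higher and 12.0% lower.

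Among the intermediate filament relatives, 8 of 12 genes were tested, with 1 higher, 2 lower and a median log2 fold change of 0.13. NEFL, the neurofilament light chain, was 17.2, 16.5 and 17.1 FPKM in oeNC and 6.62, 7.23 and 7.38 FPKM in oeSTUB1. It fell by 1.25 on the log2 scale (SE 0.080, limma adjusted p = 0.000144), with a wide gap between the groups. PRPH, the peripheral neuron filament peripherin, fell by 1.20 on the log2 scale, from 1.03, 0.984 and 0.629 to 0.287, 0.432 and 0.258 FPKM (adjusted p = 0.0166). SYNM, whose product synemin joins vimentin or desmin in heteropolymers, rose from 8.98, 9.36 and 8.07 to 15.5, 12.0 and 14.1 FPKM (log2 fold change 0.65, SE 0.11, adjusted p = 0.00916), while the values of VIM overlapped between the groups.

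Among relatives of the tropomyosins, calponins and transgelins, 8 of 10 were tested and 1 was higher, with a median of 0.22. This was CNN3, the acidic calponin, which went from 12.4 ± 0.733 to 16.7 ± 1.10 FPKM (log2 fold change 0.43, limma adjusted p = 0.0162). The log2 fold changes of the other tropomyosins TPM3 and TPM4 were 0.24 and 0.19, with adjusted p of 0.11 and 0.129. At an unadjusted limma p under 0.05, 3 genes of this list were higher (CNN3, TPM3 and TPM4) and 2 lower. The lower ones were TMOD2 and TMOD3, with log2 fold changes of -0.51 and -0.34. Without the second oeSTUB1 library, 2 were called higher and 1 lower (TPM4, CNN3 and TMOD3). Of the 5 other actins 3 were tested and none was called at an adjusted p under 0.05 by limma (1 at an unadjusted p under 0.05, ACTA1), with log2 fold changes of 0.22 for the cytoplasmic ACTB, -0.05 for ACTG1 and 0.73 for the skeletal muscle ACTA1, whose highest value was 0.203 FPKM.

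Of 14 genes of myosin II and its regulation, 13 were tested and none was higher by limma, with 3 higher at an unadjusted p under 0.05 (MYH9, MYL6 and MYL12A) and MYLK lower beside MYH14. Without the second oeSTUB1 library, 3 were higher and 3 lower (MYH9, MYH14, MYL6, MYL6B, MYL12A and MYLK). MYH14, a non-muscle myosin heavy chain, was lower, from 5.68 ± 0.367 to 3.12 ± 0.184 FPKM (log2 fold change -0.84, limma adjusted p = 0.00164), and the median of this list was -0.01. All 11 genes of serum response factor and its regulators and targets were tested, with 2 higher and a median of 0.28. SRF itself rose from 5.95 ± 0.228 to 7.65 ± 0.422 FPKM (log2 fold change 0.36, adjusted p = 0.0331), and CCN2, a secreted matricellular protein, from 5.37 ± 1.19 to 8.82 ± 1.62 FPKM (log2 fold change 0.71, adjusted p = 0.043). Without the second oeSTUB1 library 3 genes of this list were higher, SRF, MRTFA and VCL, and CCN2 was not called.

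**Figure D4:**
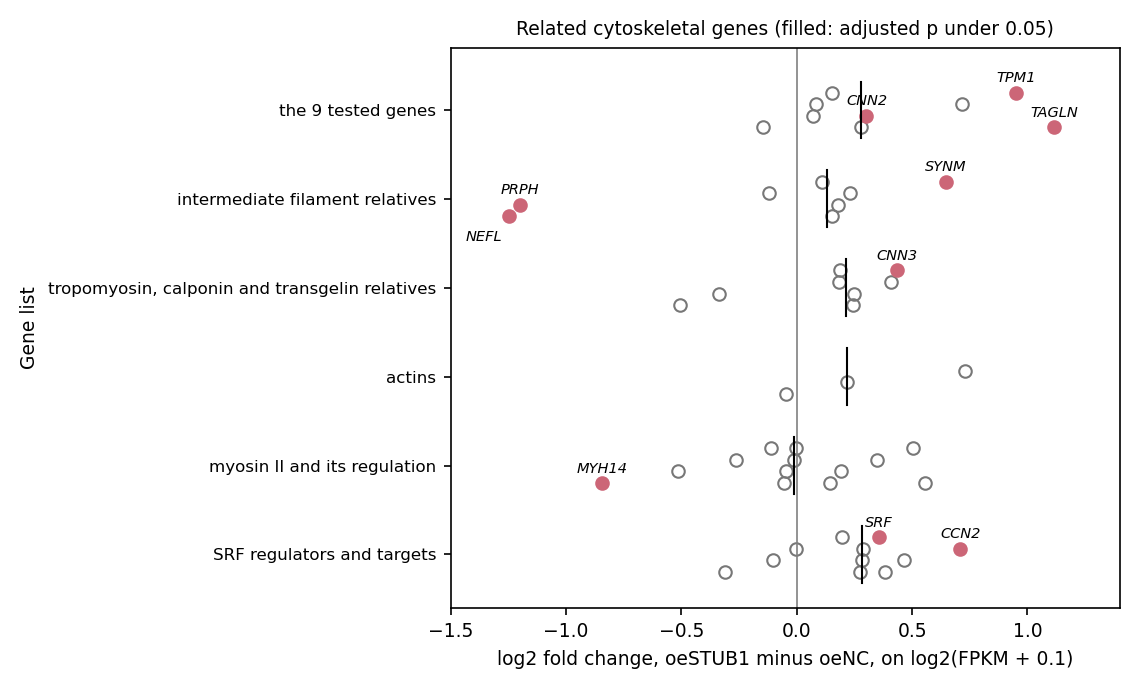
Log2 fold change, oeSTUB1 minus oeNC, of the 9 tested members and of the tested genes of 5 related lists, with 1 point per gene, filled where the adjusted p was under 0.05, and a line at the median of each list. NEFL and PRPH lie farthest to the left, and TAGLN and TPM1 farthest to the right.

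Over the 6 libraries, the genes whose pattern was nearest to that of TAGLN were LOC105372824, MT1X and CCNO, by the distance between centred log2(FPKM + 0.1) values among 11374 genes that averaged 1 FPKM or more. Their distances were 0.346, 0.378 and 0.414. MT1X, a metallothionein, went from 12.6 ± 0.837 to 30.2 ± 11.7 FPKM, highest in the second oeSTUB1 library as TAGLN was.

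Markers of other cell types were read beside these genes. Of 6 epithelial genes, 4 were lower (KRT8, KRT18, CDH1 and EPCAM) and 1 was higher (KRT19), and their summed level ranged over 7414 to 7992 FPKM in the controls and 4720 to 6259 FPKM with STUB1, without overlap. KRT7 was also called, higher, without the second oeSTUB1 library. Of 10 fibroblast and pericyte genes, 9 were listed, 3 were tested and none was called by limma at an adjusted p under 0.05 (COL1A1 higher and LUM lower at an unadjusted p under 0.05), with LUM called lower without the second oeSTUB1 library. They had a summed level of 1.69 to 2.75 FPKM in oeNC and 2.54 to 4.33 FPKM in oeSTUB1, most of it COL1A1 at 1.07 to 3.68 FPKM over the 6 libraries. COL3A1 and THY1, below the filter, were higher in oeSTUB1 without overlap, at no more than 19 fragments in any library. LUM and RGS5 were lower without overlap. DCN was listed at 0 in all oeNC libraries and had at most 2 fragments in an oeSTUB1 library. Of 5 smooth muscle genes, 2 were tested and none was called by limma, also at an unadjusted p under 0.05, with sums of 3.02 to 4.06 and 3.58 to 4.46 FPKM, most of it SMTN at 2.72 to 4.24 FPKM, and the defining genes MYH11, DES and LMOD1 were below the filter. The endothelial genes summed to at most 0.231 FPKM. The leukocyte genes summed to 31.5 to 33.2 FPKM in oeNC and 24.0 to 25.3 FPKM in oeSTUB1, most of it CD68, which was called lower (adjusted p = 0.00303). The part of these markers in the values of the 10 genes was not tested. KRT7, KRT8 and KRT18 were thus abundant in both groups, at 481.6 FPKM or more. KRT19 was low, at 0.374 to 0.529 FPKM in oeNC and 2.51 to 3.41 FPKM in oeSTUB1. SMTN and COL1A1 were at levels like that of TAGLN, and the other smooth muscle, fibroblast and endothelial markers were at 0.435 FPKM at most.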

How the data were processed

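RNA-seq of 6 TFK1 libraries (3 oeNC, 3 oeSTUB1) was analysed. The authors deposited FPKM values for 23569 genes by symbol. The submitters' processing notes name fastp 0.20.1, HISAT2 2.1.0, HTSeq 0.11.2, R 3.2.0, DESeq2 1.22.2 and GRCh38 p13, with no role given for each. Annotation and strand setting are not given in the sources used here. Samples were matched to columns by title. Whole fragments were recovered from the FPKM steps for 23569 genes (100.0%, tolerance 2e-05). A common divisor may have been lost, and FPKM rebuilt from them came within 4.93e-06 of the deposited values. Listed genes held 99.7% of each library total.

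Groups were compared with limma 3.58.1 (R 4.3.3, eBayes with trend) on log2(FPKM + 0.1), for genes averaging 0.1 FPKM or more, with Benjamini-Hochberg adjustment over all 15353 genes. Tested on simulated data for this comparison, it called 200 of 200 genes changed 4-fold among 15342, with 15 unchanged genes called. The simulated libraries all had the same small dispersion, and none stood apart as the second oeSTUB1 library did. No change smaller than 4-fold was simulated, so recovery of changes as small as those of the called members was not tested. Other settings were a pseudocount of 1 or 0.01, no filter, a filter at 1 FPKM, median-ratio scaling, quantile normalization, no trend, the replicate number as block, limma-voom on recovered fragments, each library left out and, added after seeing the data, a lowess correction for gene length. The members and lists were chosen with earlier results of these data known. All members and STUB1 were named, with up to 4 called genes from each related list by the size of the log2 fold change and the 3 genes nearest in pattern to the called member with the largest log2 fold change. Other genes named are overlapping genes, markers, TPM3, TPM4 and 3 actins, chosen after their values were seen. Some list genes with an unadjusted p under 0.05, or called without the second oeSTUB1 library, were also named after their values were seen. Gene positions and shared exon bases are from GENCODE release 29, promoters from RefSeq GRCh38.p14. The gene lengths recovered from the FPKM differed from the GENCODE exon lengths. They were 6330 against 12876 bases for TPM1, 1808 against 2976 for ACTA2 and 4260 against 3917 for TAGLN. The exons behind the deposited values may therefore share other numbers of bases. Python 3.11.15, numpy 2.4.6, pandas 2.3.3, scipy 1.17.1 and matplotlib 3.10.9 were used.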

Additional observations from a re-analysis of the deposited data

How the results depend on the processing

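Of the 10 genes, TPM1 kept its call in all 16 alternatives, TAGLN lost it in 6 and CNN2 in 13. The number of members called was 3 as reported and 1 (TPM1) without an eBayes trend. With 1 library left out it ranged from 1 to 4, being 1 (TPM1) without any 1 of the oeNC libraries or the first oeSTUB1 library, 3 without the second and 4, CNN1 included, without the third. Without a filter it was 2 (TPM1 and MYL9), with TAGLN at an adjusted p of 0.081. The number of genes called in all was 2088 as reported, 3402 after correcting for gene length (chosen after seeing the data), and 927 (without the second oeNC library) to 4118 (without the second oeSTUB1 library) with 1 library left out, and the cause was not tested. The direction of VIM, never called, reversed to -0.0231 with the correction for gene length and ranged from -0.055 (without the second oeSTUB1 library) to 0.177 with 1 library left out, and that of CALD1 reversed to -0.00545 with quantile normalization. Same-numbered libraries of the groups deviated with correlations of -0.0491, -0.0521 and 0.0617, and not every library correlated best with its own number. No pairing by number was seen, but 3 libraries per group are too few to decide whether same-numbered libraries shared a culture or batch. With the replicate block 1488 genes and 2 members, TAGLN and TPM1, were called. At this depth MYL9 and CNN1 rested on at most 27 fragments per library.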
